A study of Mus musculus with 8 samples.

Results

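Semaphorins, plexins, neuropilins, ephrins, Eph receptors, Slits, Robos, netrins and Unc5 receptors make up the molecular toolkit of axon and vessel guidance, and their messenger RNA was measured in mouse hearts at embryonic day 9.5. Within these families, members were taken by gene symbol, with no threshold on a measured value. The symbol patterns found 67 genes of the 49315 in the count table, 34 ligands and 33 receptors in 15 families. The 8 libraries came from hearts of C57BL/6 embryos, 4 labelled Female and 4 labelled Male after Sry genotyping of other tissue of the same embryos. The labels name no mutation or treatment. Whether hearts were pooled, and whether replicates came from separate litters, is not stated, and the p-values therefore cover the variation among these 8 libraries, which may be technical.

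Guidance cues attract or repel migrating cells and growing axons, some as secreted proteins and some on contact. Ephrins are cell-bound ligands that engage Eph receptor tyrosine kinases on a neighbouring cell, ephrin-A by a lipid anchor and ephrin-B by a membrane-spanning chain, and the ligand can signal back into its own cell. Semaphorins act through plexins, with neuropilins as co-receptors for most class 3 members. Slits bind Robos, and netrins bind Unc5 and Dcc-type receptors. In the embryonic heart these systems are known for arterial-venous identity (Efnb2 and Ephb4), for the growth and septation of the outflow tract (Sema3c, Plxnd1, Nrp1) and for the shaping of chamber myocardium (Sema6d, Plxna1).

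Total counts were 20105913 to 51134291 per library, and the members held 0.162% to 0.192% of them. Cardiomyocyte and endocardial markers were all present: 12 of 12 genes of each list had at least 1 CPM in every library. Markers of other tissues were counted as well. Of 13 foregut and pharyngeal genes, 6 reached 1 CPM in every library, and the summed list ran from 249 to 469 CPM in Female and from 238 to 562 CPM in Male libraries, highest in Male replicate 2 and Female replicate 1. That sum was carried by the general epithelial keratins Krt8 and Krt18 (means of 205 and 121 CPM). The other members averaged 0.54 CPM (Foxa2) to 9.13 CPM (Hhex), with Shh, Nkx2-1 and Pax9 at 1.29, 0.62 and 0.74 CPM. Cldn6, Sox17 and Epcam averaged 7.21, 6.67 and 6.07 CPM. In Female replicate 1 Cldn6, Epcam, Foxa1, Foxa2 and Shh were at their highest, with Male replicate 2 next. Sox17 was highest in Female replicate 3, and Hhex was highest in Female replicate 1 but low in Male replicate 2. Of 9 somite genes 1 reached 1 CPM in every library (2.43 to 6.22 CPM summed in Female and 1.77 to 7.07 CPM in Male libraries), with Uncx at 0 counts. Of 12 neural genes 5 did so (25.0 to 35.6 and 29.3 to 41.1 CPM). Neural crest genes reached it in 5 of 10 cases (158 to 176 CPM in Female and 141 to 195 CPM in Male libraries). The part of these tissues in the levels below was not tested, and in bulk RNA fewer cells of a type and less RNA per cell cannot be told apart. Male replicate 2 stood apart from the other libraries in all genes with a mean of at least 1 CPM, at 54.8 on a first principal component with 65.9% of the variance, while the others lay between -32.4 (Female replicate 4) and 13.2 (Female replicate 1).

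Levels are given as RPKM, the TMM-scaled CPM divided by the exon length of the gene in kilobases, which allows genes to be set side by side within a library. At a level of 1 RPKM or more in every library stood 37 of the 67 members, 20 ligands and 17 receptors. The same held for 65.9% of the 16377 genes that passed the filter on low counts and for 55.2% of all 67 members. The members were not filtered by level. A further 23 lay between, and 7 stayed below 0.1 RPKM in every library. The plot of all members by level shows every library.

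**Figure D1:**
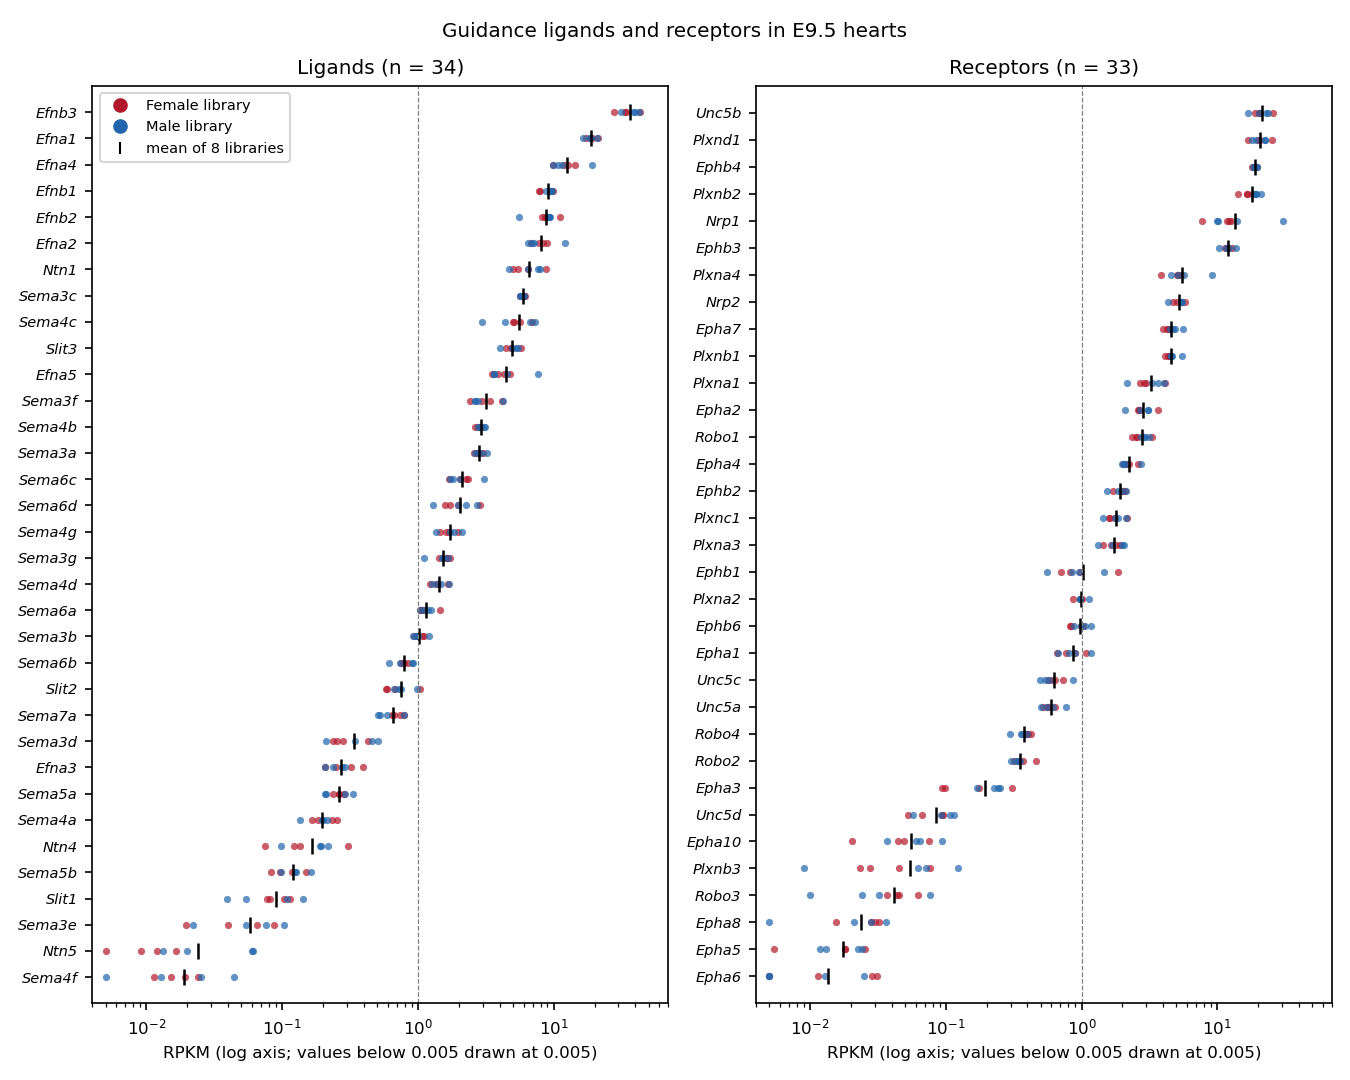
Level of each guidance ligand (left) and receptor (right) in RPKM on a log axis. Each point is 1 library (red Female, blue Male, 4 each), the black tick is the mean of the 8 libraries and the dashed line marks 1 RPKM. Efnb3 leads the ligands with all 8 libraries above those of Efna1, whereas Unc5b, Plxnd1, Ephb4 and Plxnb2 overlap at the head of the receptors.

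Ephrins were the most abundant ligands. Efnb3, a B-type ephrin best known from midline axon guidance (chromosome 11, 69554092 to 69560205, GRCm38), measured 28.0, 34.2, 33.6 and 43.4 RPKM in Female replicates 1 to 4 and 39.5, 31.2, 42.6 and 38.3 RPKM in Male replicates 1 to 4. Its mean of 36.3 ± 5.49 RPKM (SD, n = 8) was above that of 90.4% of tested genes. All 8 values lay above every value of the ligand next in order. Efnb3 supplied 67.0% ± 2.02 of the summed RPKM of its 3-gene family, and between 62.8% and 69.4% in each library.

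The other B-type ephrins stood lower and close together. Efnb1, the X-linked family member, was at 7.89, 7.76, 9.49 and 9.93 RPKM in Female and 9.73, 8.77, 9.49 and 9.44 RPKM in Male libraries. Efnb2, the arterial ephrin, was at 8.70, 8.73, 8.18 and 11.1 RPKM in Female and 9.40, 5.52, 9.27 and 9.28 RPKM in Male libraries. Efnb1 was above Efnb2 in 5 of 8 libraries, so their order was not fixed beyond the spread.

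Among A-type ephrins, which sit on the cell surface by a lipid anchor, Efna1 led. It measured 19.0, 19.0, 21.2 and 17.3 RPKM in Female and 20.8, 18.5, 16.4 and 18.5 RPKM in Male libraries. Efna4 followed at 14.4, 11.97, 12.8 and 9.92 RPKM in Female and 9.90, 19.1, 10.8 and 11.5 RPKM in Male libraries. Only in Male replicate 2 did Efna4 exceed Efna1. Efna2 averaged 8.06 ± 1.85 RPKM and Efna5 4.48 ± 1.36 RPKM (SD, n = 8), both highest in Male replicate 2 (12.2 and 7.66 RPKM). Efna3 stayed at 0.205 to 0.395 RPKM, although it lies between the family's leaders: Efna1, Efna3 and Efna4 sit on the same strand of chromosome 3, with gaps of 32.8 kb and 10.4 kb.

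Class 3 semaphorins, the secreted ones, were led by Sema3c, which guides cardiac neural crest cells into the outflow tract. Sema3c was at 6.08, 6.00, 5.66 and 6.18 RPKM in Female and 5.66, 6.03, 5.94 and 5.77 RPKM in Male libraries, a span of 1.09-fold from the lowest to the highest. This was a narrow range beside that of Sema3f, a repellent that works through Nrp2, which ran from 2.44 to 4.20 RPKM with its high values in Female replicate 1 (4.14) and Male replicate 2 (4.20). Sema3a, the classical collapsing factor of growth cones, averaged 2.84 ± 0.196 RPKM, Sema3g 1.52 ± 0.191 RPKM and Sema3b 1.03 ± 0.1001 RPKM (SD, n = 8). This order depends on exon length, 7140 bases for Sema3c, 13868 for Sema3a and 5197 for Sema3f. Without division by length these 3 averaged 42.2, 39.4 and 16.4 CPM. Sema3d lay at 0.210 to 0.508 RPKM. Sema3e, the direct ligand of Plxnd1, was nearly silent, with 7 to 33 counts per library and 0.0195 to 0.102 RPKM.

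Among the membrane-bound semaphorins Sema4c led class 4. Sema4c, a plexin-B ligand, was at 4.98, 5.66, 5.09 and 6.95 RPKM in Female and 7.33, 2.97, 6.74 and 4.40 RPKM in Male libraries. Its lowest and highest values both fell in Male libraries, 2.47-fold apart. Sema4b averaged 2.89 ± 0.161 RPKM, Sema4g 1.72 ± 0.245 RPKM and the Plxnb1 ligand Sema4d 1.44 ± 0.165 RPKM (SD, n = 8). Class 6 had Sema6c at 2.12 ± 0.450 RPKM, Sema6d at 2.05 ± 0.542 RPKM and Sema6a at 1.15 ± 0.144 RPKM, and Sema6c was above Sema6d in 4 of 8 libraries. Sema6b, Sema7a, Sema5a, Sema4a and Sema5b had means of 0.791, 0.656, 0.261, 0.197 and 0.120 RPKM, and Sema4f had 28 counts over all libraries.

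Netrins had 1 dominant gene, and Slits had 1 leading gene in RPKM. Ntn1, the founding netrin, was at 5.05, 6.41, 5.48 and 8.80 RPKM in Female and 7.60, 4.65, 7.93 and 6.42 RPKM in Male libraries and gave 97.2% ± 0.917 of the netrin sum. Ntn4, a basement membrane netrin, reached 0.0753 to 0.303 RPKM. Slit3, the Slit best known from cardiac and diaphragm development, was at 4.44, 4.88, 4.96 and 5.72 RPKM in Female and 5.47, 4.02, 5.31 and 4.90 RPKM in Male libraries, or 85.6% ± 1.91 of the Slit sum. Slit2 ran from 0.579 to 1.03 RPKM and Slit1 from 0.0394 to 0.142 RPKM. The Slit share depends on exon length, 25433 bases for Slit2 and 6067 for Slit3. Without division by length they averaged 19.1 and 30.1 CPM, so Slit3 led by less. The values of the sexes overlapped for both leaders.

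On the receptor side, Unc5b, Plxnd1, Ephb4 and Plxnb2 shared the top. Unc5b, a netrin receptor of arterial endothelium (chromosome 10, 60762610 to 60831581, GRCm38), was at 18.9, 20.4, 20.6 and 25.6 RPKM in Female and 23.7, 16.9, 22.8 and 20.4 RPKM in Male libraries. Plxnd1, the endothelial plexin (chromosome 6, 115954811 to 115995005), was at 16.8, 20.5, 19.9 and 25.2 RPKM in Female and 22.3, 18.0, 22.6 and 19.2 RPKM in Male libraries. Unc5b exceeded Plxnd1 in 6 of 8 libraries and Plxnd1 exceeded Ephb4 in 6 of 8, so the order at the top was not separated beyond the spread. Both peaked in Female replicate 4.

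Ephb4, the venous receptor for Efnb2 (chromosome 5), was among the steadiest members. It measured 18.9, 18.5, 18.1 and 19.6 RPKM in Female and 19.7, 19.1, 19.4 and 18.3 RPKM in Male libraries, a span of 1.09-fold. Ephb3 followed at 11.99 ± 0.994 RPKM, Ephb2 at 1.91 ± 0.196 RPKM, Ephb1 at 1.03 ± 0.428 RPKM and the kinase-dead Ephb6 at 0.972 ± 0.118 RPKM (SD, n = 8). EphA receptors were scarcer than EphB receptors, with a family sum of 10.8 ± 0.651 RPKM against 34.9 ± 1.16 RPKM, while the A-type ephrins summed to 44.2 ± 6.46 RPKM and the B-type ephrins to 54.2 ± 7.30 RPKM. Epha7, Epha2 and Epha4 led at 4.59 ± 0.473, 2.83 ± 0.472 and 2.24 ± 0.285 RPKM. Epha5, Epha6, Epha8 and Epha10 were below 0.1 RPKM in every library, and Epha6 had 0 counts in 3 libraries, where the limit of 3 counts that a count of 0 allows is 0.0151 to 0.0189 RPKM (counting error only). Epha1, at 0.868 ± 0.181 RPKM, overlaps the far more abundant Zyx on the opposite strand, and without a stated strand setting the reads of such a pair may not be told apart.

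Plexins other than Plxnd1 and Plxnb2 formed a middle tier. Plxna4 averaged 5.50 ± 1.57, Plxnb1 4.59 ± 0.409, Plxna1 3.24 ± 0.672, Plxnc1 1.79 ± 0.259, Plxna3 1.73 ± 0.259 and Plxna2 0.988 ± 0.0748 RPKM (SD, n = 8), and Plxnb3 had 2 to 27 counts per library. Robo1, the main Slit receptor here, was at 2.58, 2.52, 2.34 and 3.29 RPKM in Female and 2.91, 2.74, 3.14 and 2.87 RPKM in Male libraries. Robo4, the Robo of endothelial cells, was low at 0.295 to 0.425 RPKM, with 41 to 117 counts per library. Robo4 and Robo3 lie 554 bases apart on opposite strands of chromosome 9, and Robo3 stood at 0.00992 to 0.0765 RPKM. Unc5c, Unc5a and Unc5d averaged 0.626, 0.594 and 0.0852 RPKM, so Unc5b made up 94.1% ± 1.02 of its family.

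The promoters of 5 genes are shown to compare their start regions: the leading receptor Unc5b, the couple Efnb2 and Ephb4, the most variable member Nrp1, and the low endothelial Robo4. They are RefSeq windows on GRCm38.p6 from 250 bases before to 50 after the start, 5′ to 3′ on the gene's strand, with GC boxes (GGGCGG on either strand) in capitals.
Unc5b: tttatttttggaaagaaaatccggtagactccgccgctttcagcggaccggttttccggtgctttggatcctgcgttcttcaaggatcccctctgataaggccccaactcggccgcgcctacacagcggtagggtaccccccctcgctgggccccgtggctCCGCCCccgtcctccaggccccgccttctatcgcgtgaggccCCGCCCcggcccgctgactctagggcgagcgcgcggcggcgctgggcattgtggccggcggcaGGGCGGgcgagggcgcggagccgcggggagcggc
Ephb4: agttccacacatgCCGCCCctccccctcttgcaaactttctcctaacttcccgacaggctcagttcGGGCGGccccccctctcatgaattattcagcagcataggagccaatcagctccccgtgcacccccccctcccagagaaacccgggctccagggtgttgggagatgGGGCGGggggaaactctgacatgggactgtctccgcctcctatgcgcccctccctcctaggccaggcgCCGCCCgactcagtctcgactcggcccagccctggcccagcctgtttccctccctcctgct
Efnb2: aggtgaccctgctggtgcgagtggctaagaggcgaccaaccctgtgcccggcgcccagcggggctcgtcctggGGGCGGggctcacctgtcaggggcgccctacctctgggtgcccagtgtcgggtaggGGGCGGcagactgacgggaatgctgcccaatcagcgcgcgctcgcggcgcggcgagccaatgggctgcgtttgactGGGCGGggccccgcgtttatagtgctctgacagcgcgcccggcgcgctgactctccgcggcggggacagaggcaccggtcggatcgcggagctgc
Nrp1: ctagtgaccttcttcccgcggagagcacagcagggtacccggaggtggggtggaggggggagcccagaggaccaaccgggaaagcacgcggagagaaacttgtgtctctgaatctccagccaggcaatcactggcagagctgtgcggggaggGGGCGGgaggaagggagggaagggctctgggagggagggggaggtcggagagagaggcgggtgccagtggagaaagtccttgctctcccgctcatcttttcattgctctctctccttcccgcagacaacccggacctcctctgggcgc
Robo4: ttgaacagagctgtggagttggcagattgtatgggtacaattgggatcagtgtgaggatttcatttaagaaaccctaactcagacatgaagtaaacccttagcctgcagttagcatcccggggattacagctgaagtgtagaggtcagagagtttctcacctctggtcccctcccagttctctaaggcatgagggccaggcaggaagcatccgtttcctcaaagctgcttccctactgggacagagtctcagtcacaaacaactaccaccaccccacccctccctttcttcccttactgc
Their positions are chr10:60831532-60831831 (minus strand), chr5:137349859-137350158 (plus), chr8:8661193-8661492 (minus), chr8:128358823-128359122 (plus) and chr9:37401722-37402021 (plus). Unc5b holds 36 CpG dinucleotides and 3 GC boxes in this window, Efnb2 35 and 3, Ephb4 14 and 4, Nrp1 14 and 1, and Robo4 2 and 0. Efnb2 also holds a TATAAA on the opposite strand and 2 CCAAT matches on either strand, and Ephb4 and Robo4 hold 1 CCAAT each.

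Of the 67 members 58 had a promoter in the table, with 74 windows. A GC box lay in 70.3% of these windows against 35.7% of all 32851 promoters of the same length, a TATAAA in 2.70% against 13.6%, and a CCAAT in 28.4% against 37.4% (both strands were searched, and the motifs were counted independently). The median window had 19.5 CpGs against 7. Windows of members at 1 RPKM or more in every library had a median of 21.5 CpGs (40 windows), those of members below 0.1 RPKM had 17 (7 windows), and Epha8, which had 30 counts in all, has 56 CpGs. All promoters were taken whatever the level of their gene here, and no set of genes at a like level was compared. Some members, such as Sema4a and Robo2, count with several windows. A match is a description of the letters and not of a bound site.

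Setting partners side by side within each library showed which side of a couple had the higher RPKM, a measure that depends on exon length. Of 27 couples listed as partners, not all of them direct binders, 26 had more than 10 counts of the second gene in every library. Efnb2 was below Ephb4 in 8 of 8 libraries, at 0.460, 0.471, 0.451 and 0.566 of its level in Female and 0.476, 0.288, 0.478 and 0.506 in Male libraries. The low ratio of Male replicate 2 came with the lowest Efnb2 value and an Ephb4 value within the range of the others.

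Of 12 semaphorin couples, the ligand was lower than the receptor in every library in 9 and higher in every library in 1, Sema6a with Plxna2 at a median of 1.12. Sema3c was 0.288 times Plxnd1 (median, range 0.246 to 0.361) and 0.502 times Nrp1 (0.199 to 0.799), but close to Nrp2 at 1.11 (0.981 to 1.37). Sema3e was 0.00269 times Plxnd1. Sema6d was 0.576 to 0.699 times Plxna1, though each gene alone varied by 2.21-fold and 1.88-fold across libraries. Both genes, like Ntn1 of another system, were highest in Female replicate 4 and lowest in Male replicate 2. Ratios of genes that are not partners were not compared, so this narrow range cannot be called particular to the couple. With the ligand above the receptor, Efna1 was 6.98 times Epha2 (4.68 to 8.84) and Efnb1 4.84 times Ephb2 (3.79 to 6.12). Without division by exon length the margins were smaller, with means of 34.4 and 13.2 CPM for Efna1 and Epha2 and of 31.3 and 24.1 CPM for Efnb1 and Ephb2. Sema3a was below Plxna1 in mean RPKM (2.84 and 3.24) but above it in mean CPM (39.4 and 29.3).

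For the Slit and netrin systems the balance went both ways. Slit3 exceeded Robo1 in 8 of 8 libraries, by a median of 1.73 (1.47 to 2.12), and Slit2 was 0.256 times Robo1 (0.225 to 0.315). The Slit2 ratio depends on its long joined exon length, 25433 bases. Ntn1 was 0.314 times Unc5b (0.266 to 0.348). Against Neo1, a Dcc relative that also binds netrin, it stood at 1.06 (0.789 to 1.13). Dcc itself had 6 counts over all 8 libraries, so no ratio is given. Flrt3, an adhesion protein that binds Unc5 receptors, was 0.438 times Unc5b (0.350 to 0.768).

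**Figure D2:**
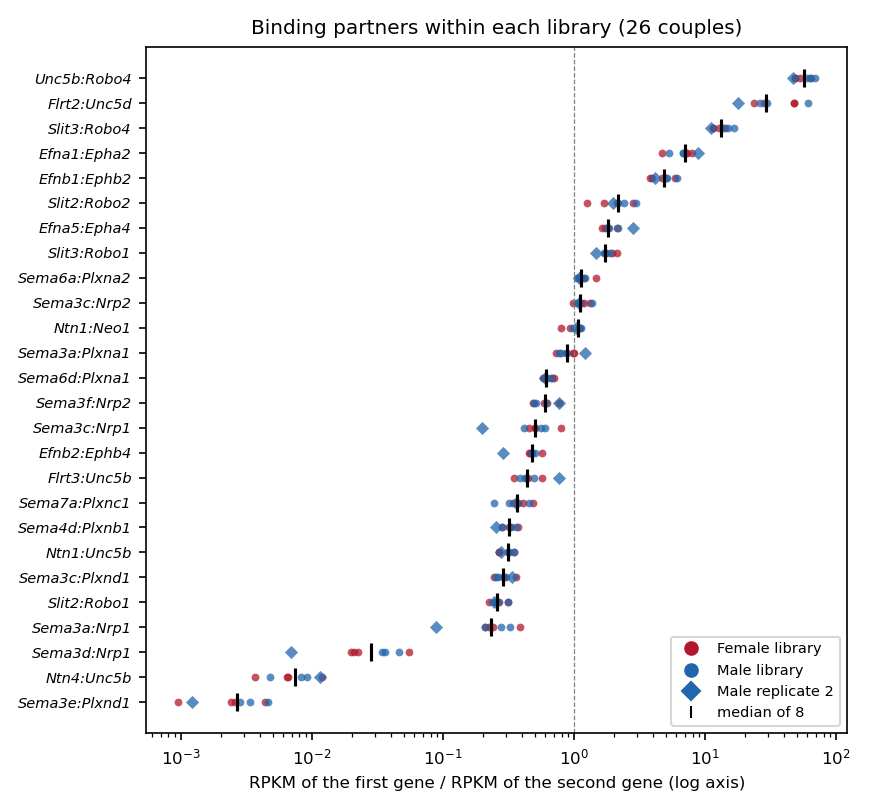
Ratio of RPKM between the genes of 26 partner couples on a logarithmic axis, 1 point per library (red Female, blue Male, diamond Male replicate 2). The median of 8 is a black tick, and a dashed line marks equal levels. Sema6d to Plxna1 keeps to 0.576 to 0.699, whereas the couples with Nrp1 spread widely and Male replicate 2 lies lowest in each of them. Genes that are not partners were not compared.

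Nrp1, the co-receptor for class 3 semaphorins and for Vegf-A (chromosome 8, 128358604 to 128503363, GRCm38), varied most of all members with a mean of at least 1 CPM. It was at 12.2, 11.9, 12.5 and 7.74 RPKM in Female and 10.1, 30.3, 9.99 and 14.05 RPKM in Male libraries. Male replicate 2 was thus highest and Female replicate 4 lowest, 3.92-fold apart. Plxna4, a partner plexin of Nrp1, was also highest in Male replicate 2 and lowest in Female replicate 4. It measured 5.13, 5.02, 5.43 and 3.84 RPKM in Female and 5.17, 9.13, 4.59 and 5.73 RPKM in Male libraries. Nrp2 did not share this range and ran from 4.33 to 5.77 RPKM.

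Across the 53 members with a mean of at least 1 CPM, Male replicate 2 and Female replicate 4 lay on opposite sides of the gene's mean in 44 cases. In 27 of them Male replicate 2 was the low one, among these Sema4c, Efnb2, Sema6d, Plxna1, Ntn1 and Unc5b, and in 17 it was the high one, among these Nrp1, Efna5, Plxna4, Efna4 and Efna2. This split by direction was not counted over all genes, so it cannot be called particular to the members. The same opposition held for 84.7% of the 13607 genes of at least 1 CPM, against 83.0% of the members. Male replicate 2 was the highest library for 32.1% of those genes and for 32.1% of the members. It was the lowest for 37.3% of those genes and 28.3% of the members. Female replicate 4 was the lowest for 22.5% and 7.55%, Male replicate 3 for 7.66% and 18.9%, and Female replicate 3 for 6.38% and 15.1%. Within the members, Spearman's rho between the deviation in Male replicate 2 and the GC content of the longest transcript was -0.169, and with exon length 0.0799 (across 53 genes of shared libraries, a description). The spread of members, a median SD of 0.19 on the log2(CPM + 0.5) scale, was close to that of all such genes (0.19).

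Marker sums of cell types also differed between these libraries. Endocardial and endothelial markers summed to 870, 980, 939 and 1065 CPM in Female and 1050, 892, 1036 and 1002 CPM in Male libraries, lowest in Female replicate 1 and Male replicate 2 and highest in Female replicate 4. Cardiomyocyte markers summed to 38272, 45079, 44348 and 36372 CPM in Female and 43926, 60791, 39476 and 47949 CPM in Male libraries, highest in Male replicate 2 and lowest in Female replicate 4. Single markers did not all follow their sum in Male replicate 2: Eng was at its highest there, 57.7 RPKM, and Hand1 at its lowest, 21.9 RPKM. In Female replicate 1 Eng was at its lowest, 36.7 RPKM, but Esam at its highest, 12.1 RPKM. Unc5b and Plxnd1 had their 2 lowest values in the libraries with the lowest endothelial sum. Ephb4 and Robo4 did not, and were lowest in Female replicate 3 (18.1 RPKM) and Male replicate 4 (0.295 RPKM). The part of these cell types in the spread of the guidance genes was not tested.

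**Figure D3:**
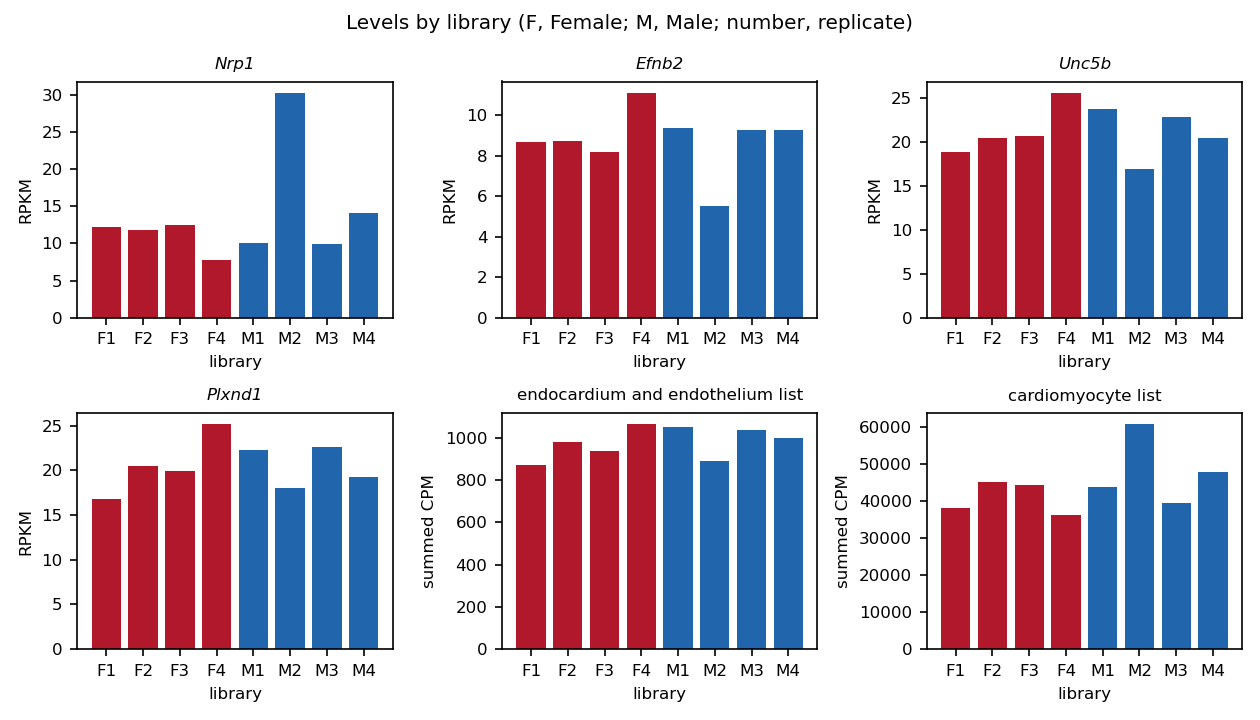
Bars give the level of Nrp1, Efnb2, Unc5b and Plxnd1 in RPKM and the summed CPM of 12 endocardial and endothelial and 12 cardiomyocyte markers in each of the 8 libraries (red Female, blue Male). In Male replicate 2 Nrp1 reaches 30.3 RPKM and the cardiomyocyte sum 60791 CPM, while Efnb2 is at its lowest, 5.52 RPKM.

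**Figure D4:**
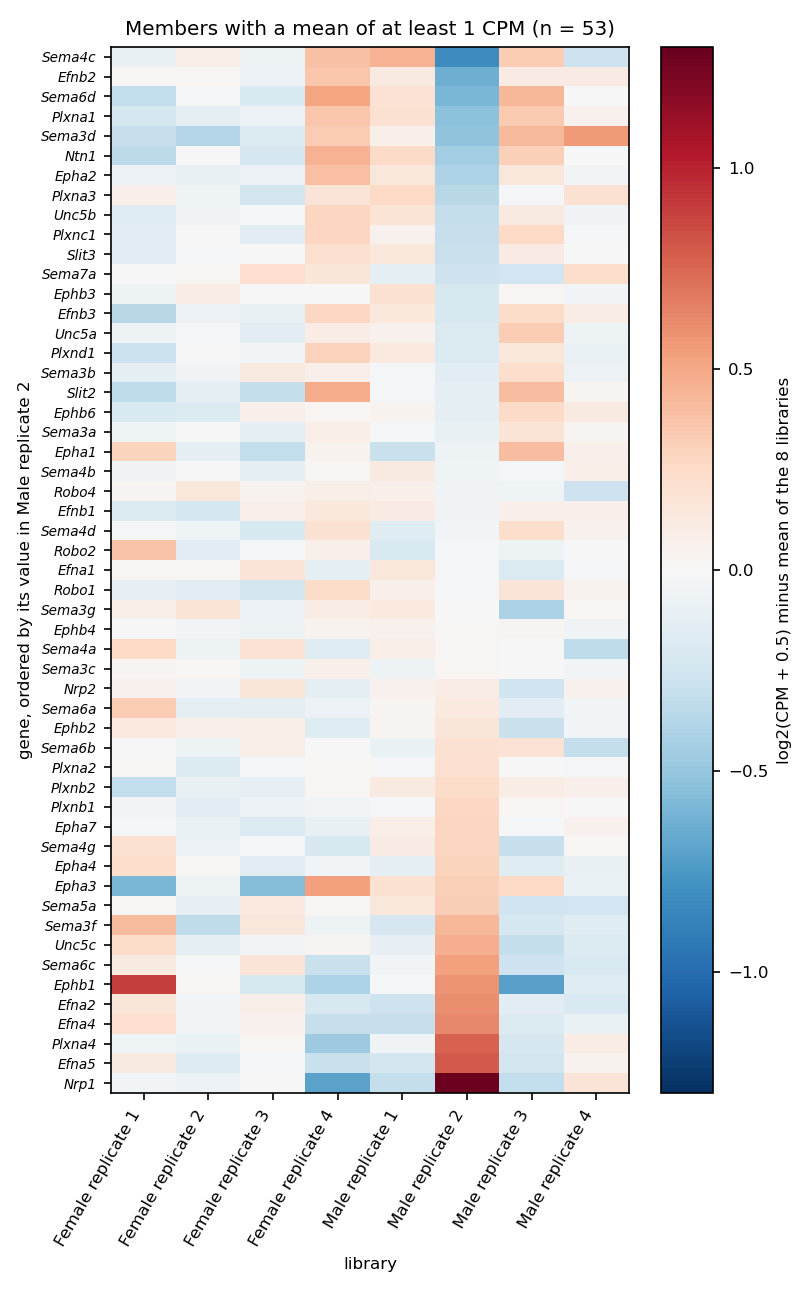
Deviation of the 53 members with a mean of at least 1 CPM from their mean over the 8 libraries, as log2(CPM + 0.5), 1 row per gene and 1 column per library, ordered by Male replicate 2. Red is above and blue below the mean: Male replicate 2 and Female replicate 4 show opposite colours in 44 of 53 rows.

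Ephb1, an Eph receptor of nervous and vascular tissue, had the largest spread after Nrp1. It was at 1.86, 0.975, 0.824 and 0.710 RPKM in Female and 0.951, 1.48, 0.561 and 0.857 RPKM in Male libraries. Female replicate 1 and Male replicate 2, its highest, also had the highest foregut sums (469 and 562 CPM) and hepatic and yolk sac sums (84.8 and 35.5 CPM, with 2.70 to 19.3 CPM in the others). They had the highest somite sums (6.22 and 7.07 CPM) and neural crest sums (176 and 195 CPM, with Female replicate 2 also at 176 CPM) as well. The neural sum was highest in Male replicate 3. Female replicate 3 had a foregut sum of 431 CPM with Ephb1 at 0.824 RPKM. Whether any of these tissues gave the Ephb1 counts was not tested. Sema4c, given above, came next in spread, and then Epha3 and Sema3d, which were low, at 0.0943 to 0.310 and 0.210 to 0.508 RPKM.

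The comparison that the study was built for, male against female hearts, found no guidance gene past the threshold. Of the 61 members that passed the filter on low counts, 0 had an adjusted p below 0.05 in edgeR, against 0.0366% of all 16377 genes tested in either direction (6 genes) and 0.0305% higher in males. An unadjusted p below 0.05 was reached by 2 members, Plxnb2 and Epha7, a share of 3.28% beside 2.24% of all genes. DESeq2 called 0 of 67 as well, also with 2 at an unadjusted p below 0.05. Higher values in males were seen for 37 of the 61, a median log2 fold change of 0.043, beside 52.9% and 0.011 over all genes. Standard errors of members at 1 RPKM or more in every library ran from 0.069 to 0.35 on the log2 scale. Simulated counts for this contrast over 16377 genes gave a call for 16.4% of true 1.5-fold changes and for 67.2% of true 2-fold changes, so a missing call does not show equal levels.

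Males had every value above every female value in 3 members, all receptors, and females in 0. The share of 4.92% of tested members higher in males stands beside 1.12% of all genes, with 1.11% of genes higher in females and 2.23% in either direction. Plxnb2, a plexin for class 4 semaphorins (chromosome 15, 89155549 to 89171120), was at 14.3, 16.7, 16.6 and 18.0 RPKM in Female and 19.3, 21.0, 19.1 and 18.7 RPKM in Male libraries, which edgeR fitted as a log2 difference of 0.26 ± 0.09 (SE) with an adjusted p of 0.9995. Epha7, which was at 4.48, 4.31, 3.996 and 4.29 RPKM in Female and 4.85, 5.55, 4.49 and 4.76 RPKM in Male libraries, had 0.20 ± 0.09. Plxnb1 was at 4.45, 4.15, 4.34 and 4.45 RPKM in Female and 4.53, 5.52, 4.66 and 4.60 RPKM in Male libraries, with 0.15 ± 0.09, or 0.079 without Male replicate 2. Plxnb1 and Plxnb2 were highest in Male replicate 2, as was Epha7, and none of the 3 passed the test. The lowest male value of Epha7, 4.49 RPKM, was next to its highest female value, 4.48 RPKM. Epha7 and Plxnb1 each overlap a gene on the opposite strand with far fewer reads, Gm11915 with 851 counts beside 12592 and Gm7628 with 484 beside 12168.

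The other members with the smallest p were further from the threshold. Plxna4 (0.34 ± 0.21) and Nrp1 (0.54 ± 0.35) had higher male values that rested on Male replicate 2, and without it they were 0.091 and 0.038. Among those with lower male values, Sema7a had a log2 fold change of -0.23 ± 0.19, Robo4 -0.19 ± 0.16, Robo2 -0.17 ± 0.14, Sema3g -0.13 ± 0.14 and Efna3 -0.24 ± 0.27 (SE, edgeR, adjusted p = 0.9995 for each). Leaving out 1 library moved each of these 5 by over 1.5 times: Efna3 to -0.063 and Robo2 to -0.047 without Female replicate 1, Sema3g to -0.029 without Male replicate 3 and to -0.20 without Male replicate 1, and, without Male replicate 4, Efna3 to -0.15, Robo4 to -0.11 and Sema7a to -0.39. The X-linked members Efnb1, Plxna3 and Plxnb3 had values of 0.09 ± 0.10, 0.04 ± 0.15 and 0.50 ± 0.63.

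**Figure D5:**
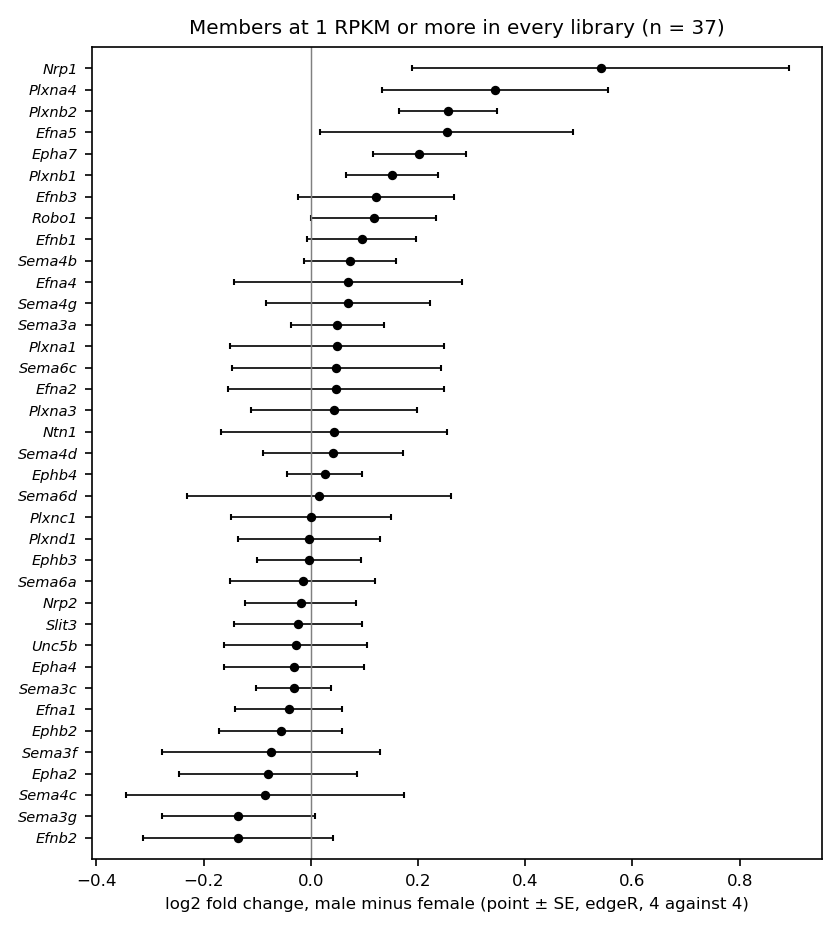
Log2 fold change, male minus female, with its SE from edgeR for the 37 members at 1 RPKM or more in every library (4 libraries against 4). Most intervals of 1 SE cross 0, and Nrp1 has the largest value and the widest interval.

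Of the genes that work with these ligands and receptors, none of those tested was called either. Of 20 co-receptors and alternative ligands, 10 reached 1 CPM in every library, and 18 were tested and 0 called, with 8 higher and 10 lower in males. Of 42 intracellular partners, 41 were tested and 0 called, 19 higher and 22 lower. Of 13 proteases and heparan sulphate enzymes, 12 were tested and 0 called, 7 higher and 5 lower. The most abundant of each were the integrin Itgb1 at 97.8 ± 19.6 RPKM and Flrt3 at 9.91 ± 1.39 RPKM, the small GTPase Cdc42 at 136 ± 9.66 RPKM and Gipc1, the adaptor that binds the tail of Nrp1, at 80.6 ± 4.19 RPKM, and the ephrin sheddase Adam10 at 22.1 ± 1.17 RPKM and Mmp14 at 46.9 ± 19.9 RPKM (SD, n = 8). Mmp14, a membrane metalloprotease, was also highest in Male replicate 2, at 94.7 RPKM there and 32.5 to 48.5 RPKM in the others. That library was the highest for 32.1% of all genes with a mean of at least 1 CPM.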

How the data were processed

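Counts per gene were deposited as whole numbers, in 1 table per library and in a table of the series with the same values, and were not normalized. Tools named in the submitters' processing notes are STAR 2.5.2b, Trimmomatic 0.36 and Subread 1.5.2 with its featureCounts, and the build is GRCm38 (mm10). Annotation release, strand setting and multi-mapping rule were not given in the sources used here. Each gene's length is that of the deposited tables and joins all annotated exons, so genes with long or rare isoforms may read low in RPKM. Symbols were found for 48970 of 49315 identifiers in GENCODE M21. A deposited table of normalized values was not used.

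Sexes were compared in R 4.3.3 by the robust quasi-likelihood test of edgeR 4.0.16 (2-sided, no covariate, TMM factors, genes kept by filterByExpr at min.count 10, Benjamini-Hochberg over 16377 genes, threshold 0.05). SEs are the log2 fold change divided by the root of the F statistic. CPM and RPKM use TMM factors. DESeq2 1.42.0 was an alternative, and Python 3.11.15 was used for tables. The fit was tested on simulated counts, where it made 9 false calls with 200 genes changed and 0 with none changed. The families whose symbols define the members, the lists and the couples were chosen with earlier results of these data known. Named were up to 3 leading members per family of 4 or more, and up to 2 of smaller families, at a mean of at least 1 RPKM, the 5 smallest p in each direction, the 5 largest spreads, and the 2 highest genes of each pathway list. Other members are named to account for all 67, and their naming followed their values where singled out.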

Additional observations from a re-analysis of the deposited data

Results flagged for a closer look

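In groups of 4 libraries, a library was singled out when its gap to the nearest other, as a share of the group's range, exceeded Dixon's 95% critical value, a limit that chance passes in about 1 in 20 groups. Of 76 groups of the named members, 8 were singled out. Some members, such as Nrp1 and Plxnb1, were named for their spread or small p in these same values. The groups also share the same 8 libraries, so 8 of 76 cannot be set against that share. Male replicate 2 was the highest of the Male libraries in 4 of them, with Efna2 at 12.2 RPKM (others 6.52 to 7.15), Sema3f at 4.20 RPKM (2.65 to 2.76), Epha4 at 2.73 RPKM (1.98 to 2.08) and Plxnb1 at 5.52 RPKM (4.53 to 4.66). Female replicate 4 was highest of the Female libraries for Epha2, at 3.69 RPKM (2.61 to 2.65), and lowest for Nrp1, at 7.74 RPKM (11.9 to 12.5). Nrp2 was lowest in Male replicate 3 among the Male libraries, at 4.33 RPKM (5.38 to 5.53), and Sema6a highest in Female replicate 1 among the Female libraries, at 1.45 RPKM (1.04 to 1.08).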

How the results depend on the processing

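Member calls between the sexes stayed at 0 under all 13 alternatives, as did those of the pathway lists: RLE size factors, DESeq2, no filter on low counts, the replicate block, leaving out each library, and leaving out Female replicate 1 with Male replicate 2, chosen after seeing the data. Calls over all genes were 9 with DESeq2 and 8 without the filter, beside 6. Members higher in males were 32 of 63 tested without Male replicate 1 and 42 of 63 without Male replicate 4, beside 37 of 61. The sexes share replicate numbers, but same-numbered libraries did not deviate together (correlations -0.417, -0.0752, -0.327 and -0.00616), so the numbers were not taken as pairs. With the replicate block, 5 of all genes and 0 members were called, and 35 members were higher in males. Without Male replicate 2 the log2 fold change of Nrp1 was 0.038 in place of 0.54, that of Plxna4 0.091 in place of 0.34 and that of Plxnb1 0.079 in place of 0.15. Without Female replicate 1 and Male replicate 2 together that of Plxnb2 was 0.16 in place of 0.26. Members at the minimum level in every library were 46 at 0.5 RPKM, 27 at 2 RPKM and 45 at 1 TPM, beside 37 at 1 RPKM. The 10 highest ligands and the 10 highest receptors were the same genes in TPM and with library size alone, both added after seeing the data. Genes with few counts, such as Plxnb3 and Ntn5, have little precision at this depth.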
